A study of Homo sapiens with 2 samples.

Results

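The nuclear genes of respiratory complexes II to V were followed in native RNA of the human cell line GM12878. The set comprises 40 genes chosen by symbol: 4 of complex II (succinate dehydrogenase), 9 of complex III (the cytochrome bc1 complex), the cytochrome c gene CYCS, 11 of complex IV (cytochrome c oxidase) and 15 of complex V (ATP synthase). All 40 were found among the 16645 annotated genes with a read, and together they had 1358 transcript models, that is, distinct exon structures to which reads were assigned. The rule for choosing the genes used their names and no measured value, although it was set with earlier results of these data known.

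GM12878 is a B-lymphoblastoid line, B cells made to grow without limit by Epstein-Barr virus. Its RNA was read on Oxford Nanopore direct RNA flow cells, in which an RNA strand itself passes the pore from its 3′ end and no PCR copy is made; the input was depleted RNA, and a reverse transcription step opened its folds. The study made 2 libraries, replicates 1 and 2, which form its single group: untreated cells, as far as the labels say, of 1 line. Nothing says whether they came from separate cultures, so the spread between them may be technical, and every test below compares the reads of 2 libraries, not conditions.

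The respiratory chain lies in the inner mitochondrial membrane. Complex II passes electrons from succinate to ubiquinone, complex III passes them on to the small carrier cytochrome c, and complex IV passes them to oxygen. Complexes III and IV pump protons, and complex V lets the protons flow back through a rotating ring of c subunits to make ATP. Complex II is encoded by nuclear genes alone, whereas the mitochondrial genome encodes core subunits of complexes III, IV and V.

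Replicate 1 held 1360368 reads and replicate 2 held 1510998. Levels are given as CPM, the field's unit for reads relative to the depth of a library; since 1 read is 1 RNA strand, they are not divided by transcript length. In these units 1 read was worth 0.735 and 0.662 CPM, and the 3 reads that a count of 0 allows were worth 2.21 and 1.99 CPM. The cell identity was checked on listed markers: all 8 B cell genes were read, with CD74 at 7766 and 8088 CPM, while ALB, HBG1, GATA1 and LYZ had no read, APOA1 had 0 and 1 read, COL1A1 had 2 and 3, and the T cell gene CD3E had 5 and 16. Known models, which match an annotated transcript, held 56.5% of the reads of annotated genes in replicate 1 and 46.4% in replicate 2, a difference of the whole libraries that stands beside every isoform result below.

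The 40 genes drew 21196 reads in replicate 1 and 22727 in replicate 2. These were 1.56% (Wilson 95% interval 1.54 to 1.58%) and 1.504% (1.48 to 1.52%) of all reads, a mean of 1.53% ± 0.0382 (SD, n = 2); such intervals cover counting error only. The median gene of the set stood at 321 CPM, against 8.23 CPM over all 16645 genes. By mean CPM, 39 of the 40 were among the top 10% of genes, and the exception was SDHD at 33.1 CPM.

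**Figure D1:**
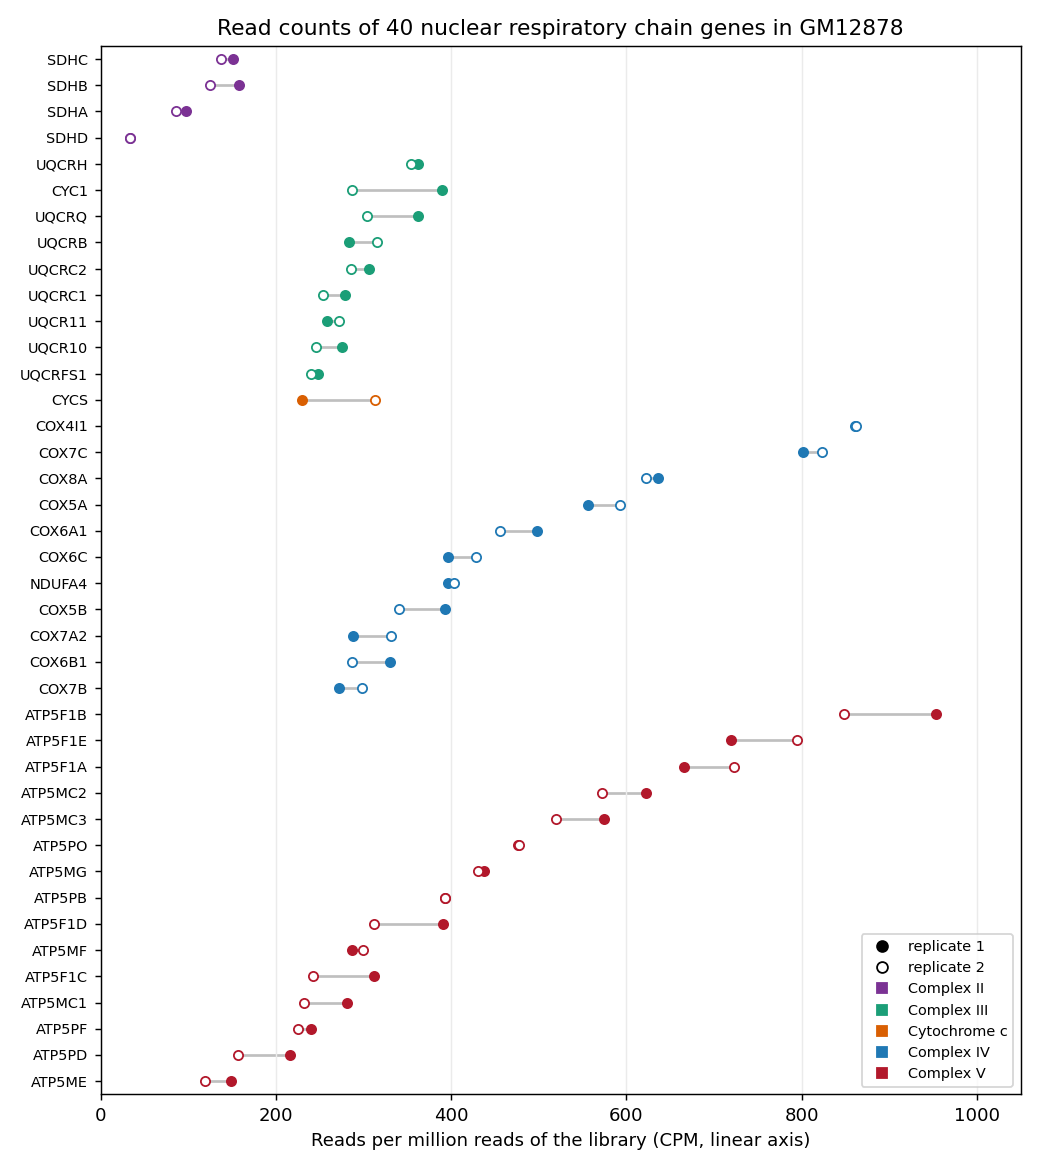
Level of each of the 40 genes in CPM (linear axis), with filled points for replicate 1 and open points for replicate 2, grouped and coloured by complex and ordered by mean level. Complex III genes lie close together, between means of 244 and 358 CPM, whereas complex V spans 134 to 901 CPM and SDHD lies lowest at 33.1 CPM.

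Levels differed little between the libraries. The 2 counts of a gene were set against the totals of their libraries by an exact binomial test, two-sided, with Benjamini-Hochberg adjustment over 10634 genes of at least 10 reads and a threshold of 0.05. It called 5 of the 40 genes, 1 higher and 4 lower in replicate 2; over all genes tested it called 5.05%, of which 2.72% of genes were higher and 2.33% lower. Among genes of at least 50 reads, which include all 40, it called 6 of the set and 9.62% of all genes. The median log2 ratio of replicate 2 to replicate 1 (0.5 reads added to each count) was −0.07 for the set and 0.01 for all genes tested. None of the 40 ratios exceeded 0.5 in size; they ran from −0.46 for ATP5PD to 0.45 for CYCS, and 26 were below 0. Without adjustment, 15 of 40 genes (37.5%) had p under 0.05 by this test, against 15.8% of all genes tested. Its calls depend on read number, and the genes of the set had more reads than most genes.

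**Figure D2:**
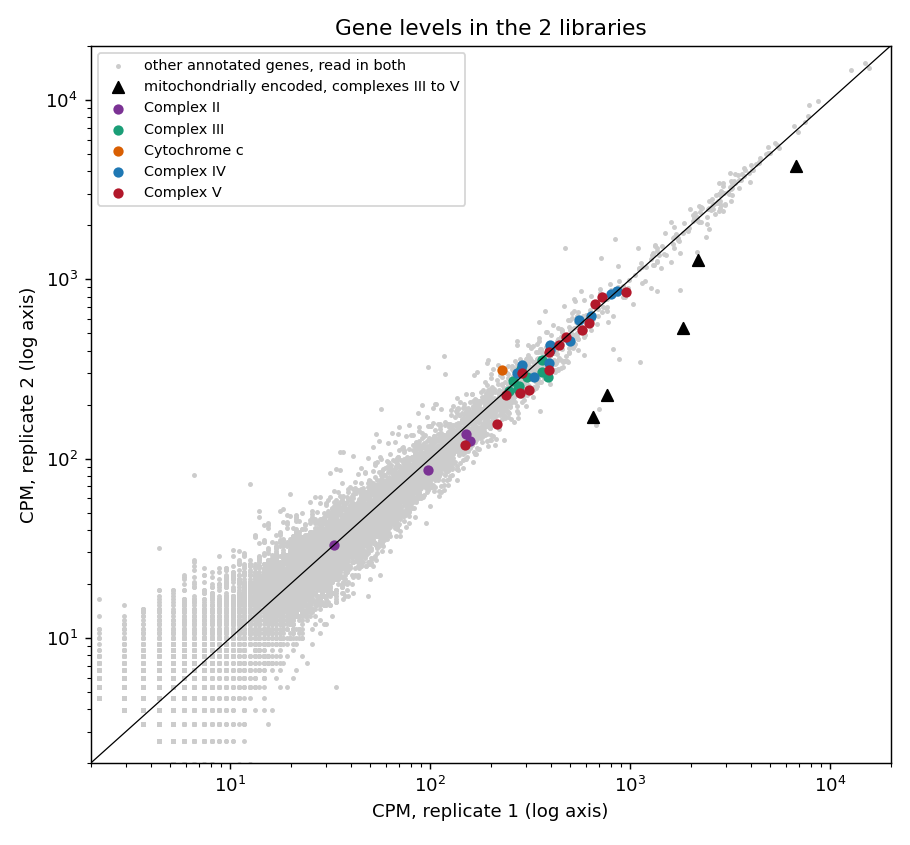
CPM in replicate 1 against CPM in replicate 2, both on log axes, for genes whose 2 counts add up to 10 or more; grey points are other annotated genes, coloured points the 40 genes and triangles the mitochondrially encoded subunits, with the line of equal CPM. The 40 genes lie along the line within 0.5 on the log2 scale, while the 5 mitochondrially encoded genes lie below it.

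Complex II was the lowest of the complexes, with 440 CPM in replicate 1 and 382 in replicate 2 summed over its 4 genes. SDHC, a membrane anchor that holds the enzyme in the lipid layer, had 151 and 138 CPM. SDHB, the iron-sulphur subunit, had 157 and 125 CPM, and its values overlapped those of SDHC. SDHA, the flavoprotein that oxidises succinate, had 97.8 and 86.0 CPM, below both in each library. SDHD, the other anchor (chr11:112086773-112120013 of GRCh38, plus strand), had 45 reads (33.1 CPM) and 50 reads (33.1 CPM). No library difference was called in this complex: the log2 ratio of SDHD was −0.0011 (exact 95% interval −0.61 to 0.61) and that of SDHB −0.33 (−0.62 to −0.04, adjusted p = 0.201 by the exact binomial test). The means of the highest and the lowest gene differed 4.37-fold.

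Complex III was the most even. Its 9 genes summed to 2762 and 2556 CPM, and their means ranged only 1.47-fold, from UQCRFS1, the Rieske iron-sulphur protein, to UQCRH, the acidic hinge protein that contacts cytochrome c1. UQCRH had 362 and 354 CPM and UQCRFS1 had 248 and 240. Between neighbours in the order of means, 7 of 8 pairs overlapped in their 2 libraries. The core proteins UQCRC1 (279 and 253 CPM) and UQCRC2 (306 and 285 CPM) and the small subunits UQCRB, UQCRQ, UQCR10 and UQCR11 all lay between those ends in mean level.

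CYC1 and CYCS, the genes of the 2 cytochromes that hand electrons to each other at the exit of complex III, differed between the libraries in opposite directions. CYC1, cytochrome c1 of complex III, had 530 and 433 reads, or 390 and 287 CPM. It was lower in replicate 2, with a log2 ratio of −0.44 (exact 95% interval −0.63 to −0.26) and an adjusted p of 0.00014 by the exact binomial test. CYCS, the soluble carrier (chr7:25120091-25125361 of GRCh38, minus strand), had 312 and 473 reads, or 229 and 313 CPM. It was higher in replicate 2, with a log2 ratio of 0.45 (0.24 to 0.66) and an adjusted p of 0.000954.

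The difference of CYCS lay in one kind of model. A single-exon model of 1032 bases, in the table's "genomic" category of models that overlap a gene without matching its splicing, took 123 reads in replicate 1 and 267 in replicate 2. Genomic models made up 40.4% (Wilson 95% interval 35.1 to 45.9%) and 56.9% (52.4 to 61.3%) of the reads of CYCS, against 0.622% and 1.66% in the other 39 genes together. Outside them CYCS had 186 and 204 reads, or 137 and 135 CPM. With genomic models left out of all genes, its log2 ratio was 0.05 (adjusted p = 0.947 by the exact binomial test), and with known models only it was 0.03. The spliced model CYCS-201 held all known reads of the gene, 167 and 155.

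Complex IV had 5429 and 5443 CPM over 11 genes. COX4I1, a regulatory subunit, was its most read gene at 862 CPM in both libraries (1172 and 1303 reads). COX7B, a small structural subunit, had the lowest mean, at 272 and 298 CPM, and overlapped COX6B1 at 330 and 287. COX7C (802 and 823 CPM), COX8A (636 and 622 CPM), COX5A (556 and 592 CPM) and COX6A1 (498 and 455 CPM) followed COX4I1, each above the next in both libraries. NDUFA4, first described in complex I and now counted with complex IV, had 396 and 403 CPM and overlapped COX6C at 396 and 428. No gene of complex IV was called different between the libraries, and the log2 ratios with the largest size were −0.20 for COX6B1 and for COX5B and 0.20 for COX7A2.

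The cells read the forms of complex IV that most tissues use. The muscle, lung and testis forms and relatives COX6A2, COX6B2, COX7A1, COX7B2, COX8C and NDUFA4L2 had no read, which allows up to 2.21 and 1.99 CPM, and COX4I2 had 1 and 0 reads. Their common counterparts COX4I1, COX6A1, COX6B1, COX7A2, COX7B and COX8A all stood at 272 CPM or more in each library. From the same list of forms and relatives, COX7A2L (185 and 152 CPM), HIGD2A (192 and 190) and HIGD1A (30.9 and 15.9) were read.

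Complex V, with 6721 and 6347 CPM over 15 genes, was the widest. ATP5F1B, the catalytic beta subunit of the F1 head, was the highest at 953 and 848 CPM (1297 and 1282 reads). Its partner ATP5F1A, the alpha subunit, had 666 and 723 CPM, below ATP5F1B in both libraries. In the assembled enzyme copies of the alpha and beta subunits alternate around the head. ATP5ME, a small membrane subunit, was the lowest at 149 and 119 CPM, and the means of the ends differed 6.71-fold.

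In complex V, 3 genes were called, all lower in replicate 2. The exact binomial test called 2.33% of all genes tested lower, and 9.62% in either direction among genes of at least 50 reads. ATP5F1C, the gamma subunit that turns inside the head, had 425 and 366 reads (312 and 242 CPM), a log2 ratio of −0.37 (exact 95% interval −0.57 to −0.16) and an adjusted p of 0.0114 by the exact binomial test. ATP5F1D, the delta subunit at the foot of that shaft, had 531 and 472 reads (390 and 312 CPM), a ratio of −0.32 (−0.50 to −0.14) and an adjusted p of 0.0133. ATP5PD, subunit d of the outer stalk, had 294 and 237 reads (216 and 157 CPM), a ratio of −0.46 (−0.72 to −0.21) and an adjusted p of 0.00853. Other genes of the stalks, ATP5F1E (720 and 795 CPM), ATP5PB (393 and 392), ATP5PF (240 and 226) and ATP5PO (476 and 478), were not called with all models counted. ATP5F1B of the head, with a ratio of −0.17 and an adjusted p of 0.0571 by the exact binomial test, was called lower too under TMM and DESeq2 scaling and with a minimum of 50 reads. With genomic models left out it was not called (ratio −0.11, adjusted p = 0.301 by the same test). That setting called ATP5F1A and ATP5F1E higher, kept the 3 calls above, and called 8.26% of all genes tested. With known models only, ATP5F1D (ratio −0.17, adjusted p = 0.239) and ATP5PD (−0.24, adjusted p = 0.348) were no longer called by that test, while ATP5F1C and CYC1 were. ATP5F1A, ATP5F1B, ATP5F1E, ATP5PB and ATP5MG were also called with known models only, and so were 18.8% of all genes tested.

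The c ring is built from 1 protein that 3 genes encode. Their sequences are shown because reads of the 3 genes must be told apart although the ends of their coding regions give the same residues. The last 75 codons, from GENCODE transcript sequences, are in lower case, with capitals in ATP5MC2 and ATP5MC3 where the base differs from ATP5MC1:
ATP5MC1: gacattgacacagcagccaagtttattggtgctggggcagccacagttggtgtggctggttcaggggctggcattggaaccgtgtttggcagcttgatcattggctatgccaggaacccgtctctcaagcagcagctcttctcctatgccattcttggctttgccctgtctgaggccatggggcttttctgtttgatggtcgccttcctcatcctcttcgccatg
ATP5MC2: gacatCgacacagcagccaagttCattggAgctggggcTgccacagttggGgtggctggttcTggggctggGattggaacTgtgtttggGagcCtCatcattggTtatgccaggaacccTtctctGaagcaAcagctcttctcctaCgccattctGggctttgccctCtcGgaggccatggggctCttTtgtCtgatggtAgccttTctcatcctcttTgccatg
ATP5MC3: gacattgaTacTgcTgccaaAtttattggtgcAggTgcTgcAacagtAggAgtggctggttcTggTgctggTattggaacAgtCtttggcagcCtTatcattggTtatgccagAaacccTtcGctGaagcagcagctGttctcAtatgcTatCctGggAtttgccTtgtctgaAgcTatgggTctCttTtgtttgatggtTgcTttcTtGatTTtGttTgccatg
They lie, on GRCh38, in chr17:48895222-48895766 (plus strand), chr12:53665317-53669260 (minus) and chr2:175178291-175179169 (minus), each split over 2 coding exons. ATP5MC1 and ATP5MC2 differed at 25 of 225 bases (88.9% identity), which changed 24 codons, all 24 synonymous. ATP5MC3 differed from each of them at 42 bases (81.3% identity) in 39 codons, again all synonymous.

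All 3 c ring genes were read. ATP5MC2 had 623 and 572 CPM and ATP5MC3 had 575 and 520, and their values overlapped. ATP5MC1 was lower at 281 and 232 CPM, under both of the others in each library. The log2 ratios between the libraries were −0.27, −0.12 and −0.15 for ATP5MC1, ATP5MC2 and ATP5MC3, and none was called.

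The categories of the transcript models differed between the libraries throughout the set. Besides known and genomic models, the table holds incomplete splice matches (ISM: a run of an annotated transcript's junctions, or 1 exon alone), models that join annotated splice sites in a new way (NIC) and models that use a splice site absent from the annotation (NNC). ISM models of 1 exon, which have no junction, include those of SDHC (50 and 105 reads) and UQCRFS1 (28 and 106 reads). Known models held 80.4% of the reads of the 40 genes in replicate 1 (Wilson 95% interval 79.9 to 80.9%) and 69.6% in replicate 2 (69.0 to 70.2%), a mean of 75.01% ± 7.64 (SD, n = 2). ISM models held 11.9% and 22.1%, and of these reads 88.2% and 85.0% were in suffix models, which keep the 3′ end and lack 5′ exons. NIC models held 2.17% and 1.66%, NNC models 4.32% and 3.78%, and genomic models 1.21% and 2.81%.

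**Figure D3:**
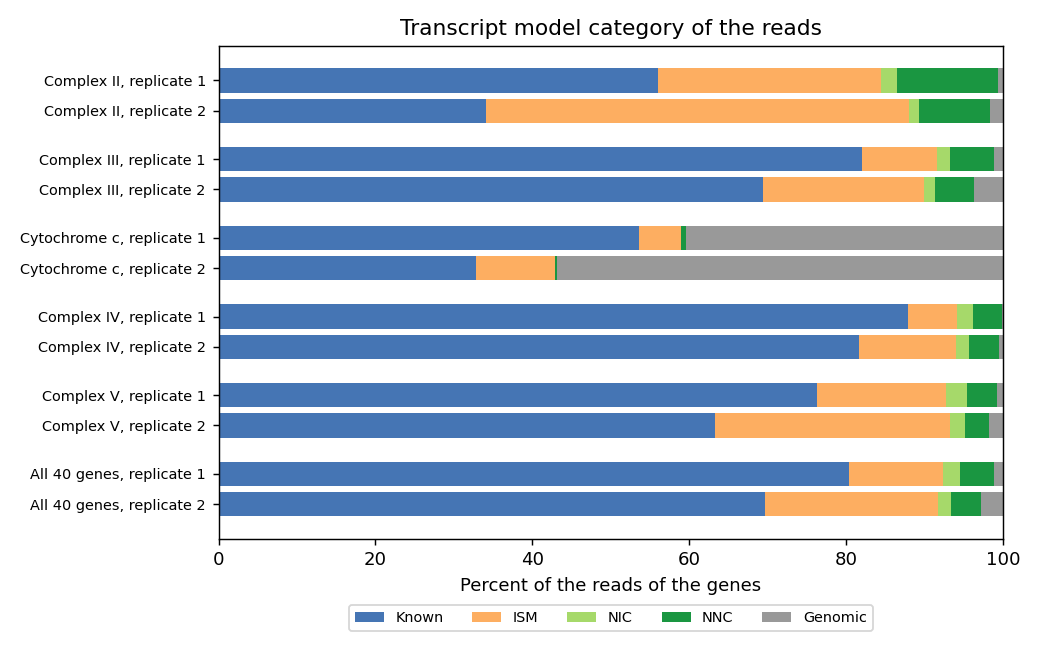
Percent of reads in each model category, for each complex and for all 40 genes, with 1 bar per library. The known part is shorter in replicate 2 in every pair of bars, the ISM part is longer, and genomic models are a large part only for cytochrome c, at 40.4% and 56.9%.

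The known share was lower in replicate 2 in 40 of 40 genes, and in 79.4% of 6340 genes with at least 20 reads in each library. Fisher's exact test of known against other reads, adjusted over those genes, called 29 of the 40 lower and 0 higher; it called 26.9% of all genes lower. Calls depend on read number: among genes with at least 200 reads in each library it called 30 of 36 of the set (83.3%) lower, and 70.7% of all such genes. The median change was −8.90 percentage points in the set, where the median known share in replicate 1 was 82.3%. It was −8.62 in all genes tested, where that median was 32.5%. By complex, called genes were 3 of 4 in complex II, 7 of 9 in complex III, CYCS, 7 of 11 in complex IV and 11 of 15 in complex V. The part that the difference between the whole libraries had in these values was not tested.

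The largest changes were in ATP5F1A, UQCRFS1 and SDHC. ATP5F1A (chr18:46080248-46104334, minus strand) went from 64.0% known reads in replicate 1 to 30.8% in replicate 2, a change of −33.2 points with an adjusted p of 5.04e-48 by Fisher's exact test. Its 12-exon model ATP5F1A-202 had 577 and 321 reads, while the 5-exon suffix model that was the next most read had 39 and 117. The Rieske gene UQCRFS1 went from 88.7 to 59.1% although its annotated model has only 2 exons, and SDHC from 48.5 to 21.2%. UQCRC2 went from 60.6 to 37.1%, ATP5PB, subunit b of the outer stalk, from 65.4 to 42.0%, and UQCRC1 from 53.6 to 31.9%. CYCS (53.5 to 32.8%), ATP5F1B (55.7 to 35.4%), SDHA (42.9 to 23.1%) and CYC1 (80.9 to 62.8%) complete the 10 genes with the largest called changes.

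The highest known shares were in small subunits of complexes IV and V. COX6A1 had 98.7 and 95.3%, ATP5MG, a small membrane subunit of ATP synthase, 98.0 and 96.8%, and COX8A 97.9 and 95.6%. SDHD (15.6 and 12%), SDHA and SDHC had the lowest mean shares. The changes of ATP5MG (adjusted p = 0.406) and SDHD (0.988) were not called by Fisher's exact test.

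**Figure D4:**
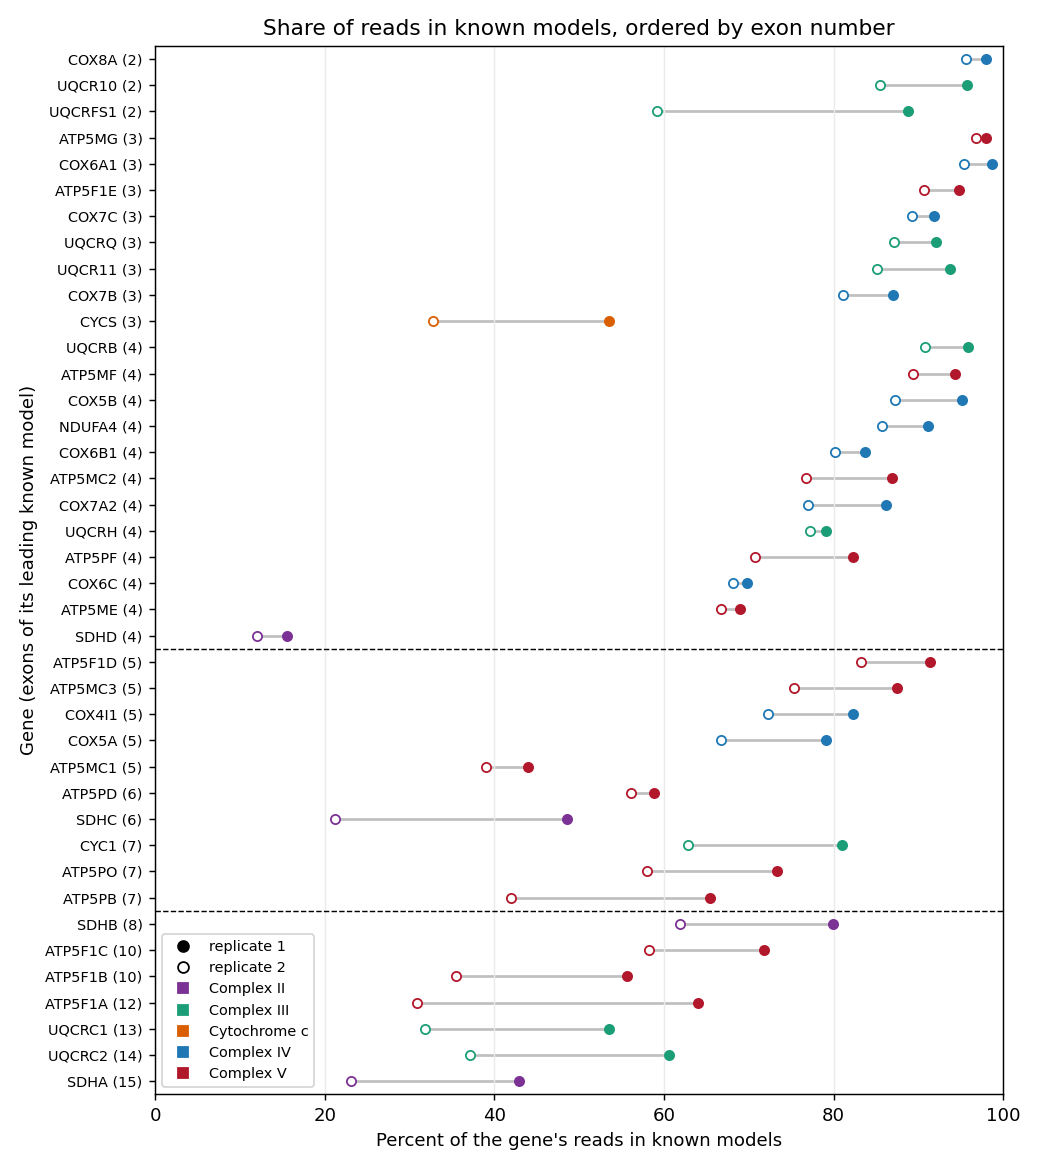
Percent of each gene's reads in known models, with filled points for replicate 1 and open points for replicate 2; genes are ordered by the exon number of their leading known model, given in brackets, and dashed lines part 2 to 4, 5 to 7 and 8 or more exons. All 40 open points lie left of the filled ones, and the median change is largest below the lower line, at −20.3 points, although UQCRFS1 and SDHC above it have wider distances than most genes there.

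Grouped by the exon number of the leading known model (the known model with most reads), the 23 genes with 2 to 4 exons had median known shares of 91.1 and 85.2% and a median change of −4.97 points. The 10 genes with 5 to 7 exons had 76.2 and 60.4%, with a median change of −12.3. The 7 genes with 8 exons or more (SDHA, SDHB, UQCRC1, UQCRC2, ATP5F1A, ATP5F1B and ATP5F1C) had 60.6 and 35.4%, with a median change of −20.3. Over all genes tested the median known shares in the same classes were 52.1 and 34.5%, 46.5 and 30.4%, and 25.8 and 11.9%. Their median changes were −6.83, −11.6 and −11.4 points, from lower starting shares than in the set. Across the 40 genes, which share 2 libraries and their depth, Spearman's rho of exon number with known share was −0.679 in replicate 1 and −0.688 in replicate 2, and with the change −0.547; these describe genes, which are not replicates.

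In 36 of 40 genes the most read model was a known one, and in 38 it was the same model in both libraries. In 4 genes another kind of model led over both libraries. SDHD was led by an NNC model of 4 exons and 1392 bases with 35 and 31 reads, 77.8 and 62.0% of the gene, whereas its leading known model SDHD-206 had 6 in each. ATP5MC1 was led by a 4-exon suffix model with 186 and 156 reads, above ATP5MC1-201 with 137 and 97. In SDHC the spliced SDHC-202 led in replicate 1 (86 reads against 50) and a single-exon ISM model of 861 bases in replicate 2 (105 against 36). CYCS was led by CYCS-201 in replicate 1 and by its genomic model in replicate 2.

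NIC and NNC models were a small but repeated part of the set, and whether their junctions are real was not tested. An NNC model of UQCRH with 4 exons had 79 and 82 reads, 16.1 and 15.3% of the gene. A NIC model of COX5A had 49 and 46 reads, and an NNC model of COX7C had 34 and 45. By the lower of their 2 counts these were the highest NIC or NNC models of the set. Of 248 NIC models 22.6% were read in both libraries and of 426 NNC models 29.1%, against 75.5% of 159 known and 43.4% of 477 ISM models. Models with a single read were 51.3% of the 1358.

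Within the known reads, the part of the leading model was called lower in replicate 2 in 8 of the 35 genes that could be tested, and higher in 0. Fisher's exact test of the leading against the other known models (at least 20 known reads in each library and 2 models or more, adjusted over 1878 genes) called 12.5% of all genes. With at least 50 known reads in each library it called 7 of 33 genes of the set and 19.01% of all genes, so the share called moved with the read number. ATP5F1B-201 had 684 and 331 reads, 94.7 and 72.9% of the known reads (adjusted p = 1.97e-23 by this test). SDHA-201 had 52 and 18 reads, 91.2 and 60.0% (adjusted p = 0.0124 by the same exact test). ATP5F1C-202 went from 96.4 to 85.0%, UQCRC2-201 from 93.3 to 82.5% and UQCRH-201 from 91.5 to 84.0%. ATP5F1A-202 went from 99.5 to 95.3%, COX4I1-201 from 97.6 to 93.5% and ATP5MG-201 from 96.6 to 92.7%.

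In several of these genes an annotated transcript with fewer exons had more reads in replicate 2. ATP5F1B-208, a 2-exon transcript annotated as a processed transcript, had 38 and 117 reads, ATP5F1C-209 had 8 and 30, while the retained-intron transcript UQCRC2-203 had 12 and 26. UQCRH-202, also a retained-intron transcript, had 16 and 45. All 4 are nested: their junctions equal the 3′ part of a longer annotated transcript, so a read of the longer one that lacks its 5′ exons cannot be told apart from them in these counts. Nested models, a property looked at after the calls were seen, held 13.9 and 14.5% of the known reads of the set, and 18.9 and 22.7% over all annotated genes. Of the 20 genes with such reads, 17 had a leading model that was not nested, and in 15 of these 17 the nested share was higher in replicate 2, with medians of 5.56 and 14.1%. In the other 3, led by a nested model, that share was lower in replicate 2: ATP5F1A (99.5 and 95.5%), COX7A2 (97.6 and 97.1%) and ATP5MC2 (95.4 and 94.1%). Nested and leading shares are parts of the same known reads, so these counts are not separate from the calls above. The same count over all genes was not made.

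**Figure D5:**
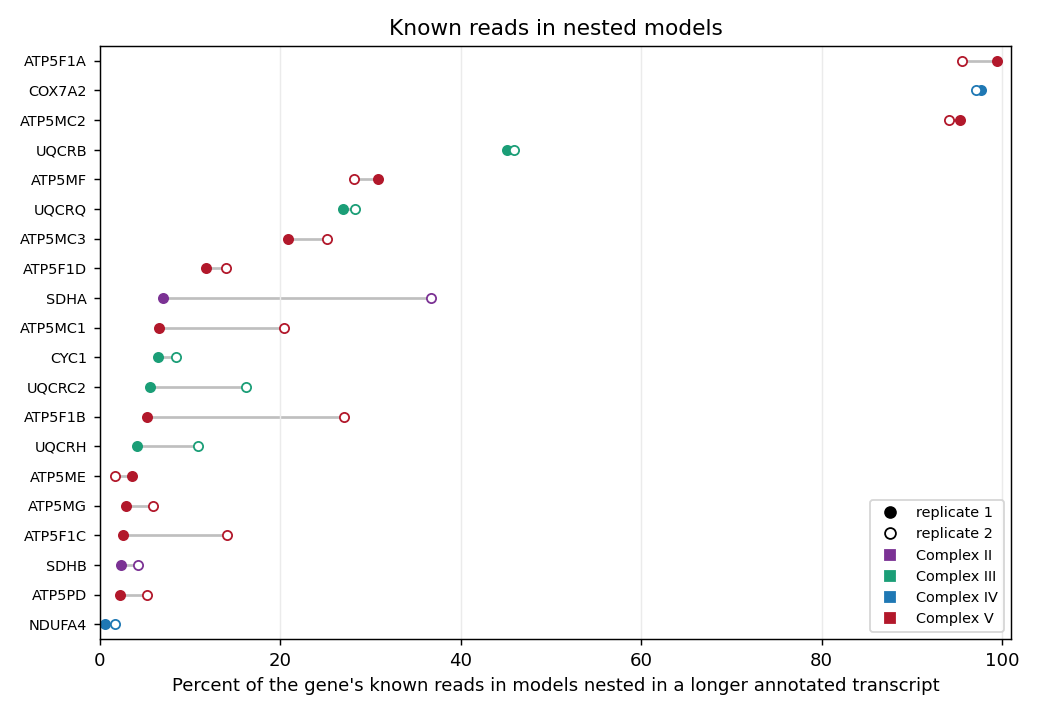
Percent of a gene's known reads in models nested in a longer annotated transcript, for the 20 genes that have such reads, with filled points for replicate 1 and open points for replicate 2. ATP5F1A, COX7A2 and ATP5MC2, whose leading model is itself nested, lie above 90% in both libraries, and SDHA and ATP5F1B show the widest distances among the others.

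ATP5MC2 is 1 gene whose known reads depend on this. The model ATP5MC2-203, annotated as a retained-intron transcript with no coding region and nested, held 702 and 624 reads, while the protein-coding ATP5MC2-202 held 34 and 39. Hence 95.4 and 94.1% of the known reads of a c ring gene were counted under a non-coding name. It was the only gene of the 40 whose leading known model was not of the protein-coding type. UQCRB was similar in part: the nested retained-intron transcripts UQCRB-208 (154 and 135 reads) and UQCRB-205 (13 and 64) stood beside the coding UQCRB-201 with 195 and 229.

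Some genes were read in several full coding forms, with no called change of the leading one. ATP5MF, subunit f of the membrane part, was read as ATP5MF-203 with 143 and 166 reads, as ATP5MF-201 with 102 and 114, and as the nested retained-intron transcript ATP5MF-210 with 114 and 114. The first pair, both protein-coding, differ by a choice of splice donor, shown because the extra stretch is the whole difference in coding sequence: the 18 bases in capitals (chr7:99466111-99466128 of GRCh38, minus strand) are kept in ATP5MF-201 and spliced out in ATP5MF-203.
ATP5MF-201: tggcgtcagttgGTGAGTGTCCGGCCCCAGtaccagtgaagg
The stretch keeps the reading frame. ATP5MF-203 made up 38.8 and 41.0% of the known reads of the gene, ATP5MF-201 made up 27.6 and 28.1% and ATP5MF-210 made up 30.9 and 28.1%, and no change of the leading form was called (adjusted p = 0.858 by Fisher's exact test). UQCR10-201 and UQCR10-202 likewise held 84.7 and 83.9% against 15.3 and 16.1%. For ATP5F1D, ATP5F1D-202 held 64.9 and 69.7% and ATP5F1D-201 held 22.9 and 15.8%.

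The known reads of ATP5F1C were of a single splice form at its last coding exons. An exon of 37 bases near the 3′ end of the gene (exon 9 of ATP5F1C-202, chr10:7806974-7807010, plus strand) is skipped in heart and skeletal muscle, as is known from earlier work, and kept elsewhere. It is shown because it ends the protein: the last 12 coding bases before it are in lower case and the 4 coding bases that it adds before its stop codon begins in capitals.
ATP5F1C-202: tgctgcagctctGGAT
Known reads that joined this exon to the one before it numbered 304 and 211, and none skipped it, which allows a share of up to 0.987 and 1.42%. ATP5F1C-201, the annotated form without the exon, had no read.

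The other genes of the pathway were taken from lists by role. Of the 37 nuclear genes of complex I, the entry point for electrons from NADH, 1 was called higher (NDUFA5) and 3 lower (NDUFB10, NDUFS6 and NDUFV2) by the same binomial test, and their median level was 157 CPM. Over all genes tested it called 2.72% higher and 2.33% lower, and among genes of at least 50 reads 9.62% in either direction. The known share of complex I genes was called lower in 12 of 37 (26.9% over all genes tested). In the binomial test of counts, the assembly factors of complexes II, III and V, 4, 6 and 3 genes with medians of 25.1, 28.3 and 47.5 CPM, had no call, and of the 22 listed assembly factors of complex IV only COA4, with 173 and 135 reads, was called lower. The remaining complex V genes read, ATP5IF1 (322 and 291 CPM), which inhibits the enzyme when it runs backwards, ATP5MD (252 and 206), ATP5MPL (223 and 239) and ATP5S (16.9 and 21.8), had no call in that test. The known share was called lower in 1 of 2 tested assembly genes of complex II, 0 of 5 of complex III, 4 of 20 of complex IV, 2 of 3 of complex V, and 2 of these 4 remaining complex V genes.

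All 5 mitochondrially encoded partners that could be tested were lower in replicate 2 by the exact binomial test. MT-CYB, the core of complex III, had 1824 and 537 CPM, with a log2 ratio of −1.76. MT-CO1, MT-CO2 and MT-CO3, the core of complex IV, had 2190 and 1283, 762 and 226, and 6705 and 4269 CPM. MT-ATP6, the channel subunit beside the c ring, had 653 and 171 CPM, and MT-ATP8 had 2 and 0 reads. The nuclear sum over the mitochondrial sum was therefore 1.51 and 4.76 in complex III, 0.562 and 0.942 in complex IV and 10.3 and 37.0 in complex V. Fewer mitochondrial RNAs per cell and a different yield of them in the library cannot be told apart here.

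Near-identical copies could draw reads from the set. In all, 14 pseudogenes named after 12 of the 40 genes had 79 and 105 reads, 0.373 and 0.462% of the reads of the set, led by ATP5F1EP2 with 19 and 32. UQCRHL, an intronless copy of UQCRH, had 19 and 37. How the authors' alignment divided such reads is not given in the sources used here.

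Promoter letters were compared because nuclear respiratory factor 1 (NRF1) and the ETS factor GABPA are known to act on many genes of this pathway. RefSeq windows on GRCh38.p14, from 250 bases before to 50 bases after the start of a gene, matched 31 of the 40 genes. The letters TGCGCA, the core of the NRF1 site and the same on both strands, were in 10 of the 31 windows (32.3%), in 17.5% of the windows of 7902 genes tested here for their counts, and in 9.76% of all 27305 windows. They were in 10 of 32 windows of complex I genes (31.2%). The GABPA letters CCGGAAG, searched on both strands, were in 15 of the 31 windows (48.4%), in 25.4% of the windows of tested genes, in 12.2% of all windows and in 5 of 32 of complex I. Stretches of 26 bases, with TGCGCA in capitals, are shown for SDHA, SDHB and SDHD, because these are 3 of the 4 genes of the lowest complex:
SDHA: gggtccgcttTGCGCAggcgcggcgc
SDHB: actgcgctatTGCGCAcgctcgctgt
SDHD: cagctgtgttTGCGCAtgcgcgacgg
They lie at chr5:218143-218168 (plus strand), chr1:17054195-17054220 (minus) and chr11:112086752-112086777 (plus). Over the matched genes, the median level was 266 CPM in the 10 with TGCGCA and 310 CPM in the 21 without. The 10 ranged from 33.1 CPM in SDHD to 813 CPM in COX7C, and the 3 shown were picked from the lowest complex. A link of the letters with level was not tested. A match of letters is a description and shows no binding.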

How the data were processed

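Direct RNA reads of 2 GM12878 libraries were analysed from the 1 table that the authors deposited. Its values are raw read counts per transcript model, which the authors did not normalise; exon number and length of each model are other properties deposited in the same table, and the length of a known model is that of the annotated transcript, not of the reads. The table's name gives TALON as the program, and the submitters' processing notes list minimap2 and hg38 with no version or role; read filters are not given in the sources used here. Versioned ID, length and exon number of all 23533 known models matched GENCODE release 29, from which positions and exon structures were taken.

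Counts were summed over all models of an annotated gene, and libraries were grouped by title. Tests were the exact binomial test (at least 10 reads together) and Fisher's exact tests (at least 20 reads in each library) with Benjamini-Hochberg adjustment at 0.05, in Python 3.11.15 with scipy 1.17.1, pandas 2.3.3, numpy 2.4.6 and matplotlib 3.10.9. They were tried on simulated counts that varied between libraries only by counting error and the changes put in. With further variation between libraries they were not tested. With 1 group of 2 libraries, edgeR 4.0.16 and DESeq2 1.42.0 (R 4.3.3) served only to compute alternative library sizes. Neighbouring genes in an order of levels were called apart where both libraries of one lay above both of the other. Alternatives changed the scaling, the minimum reads, the models counted and the libraries.

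Genes named with values were, in each complex, the highest and the lowest; those past a test (up to 10); the c ring genes, NDUFA4 and CYCS; those led by a model that is not known; the 3 leading NIC or NNC models; and the 3 highest and lowest known shares. Others were named after their values were seen. The genes and lists were chosen with earlier results of these data known. Protein sequences were not used here.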

Additional observations from a re-analysis of the deposited data

How the results depend on the processing

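The share of the set was 1.53% of all reads; it was 2.26% with known models only (in the genes and the total) and 1.73% with genomic models left out, and 1.504 to 1.56% with a single library. Its known share, 75.01%, was 69.6 to 80.4% with a single library and 64.4% with nested models counted as not known, an alternative chosen after seeing the data, as was the minimum of 200 reads. With known models only, 17 genes differed between the libraries in place of 5 (8 higher and 9 lower, 2 of them shared with the 5), and 18.8% of all genes tested did. Scaling by TMM or DESeq2 factors called 6 genes each, and 5.12 and 5.09% of all genes tested. Both added ATP5F1B (adjusted p = 0.0389 and 0.03 by the exact binomial test). With ISM, NIC and NNC models included, 24 leading models of 40 tested differed, in place of 8 of 35. Of all genes tested, 29.7% then differed, in place of 12.5%. The log2 ratio changed sign, without a call, for COX4I1 under TMM (−0.0085) and DESeq2 factors (−0.013), for SDHD with genomic models left out (0.070), and for UQCRH with known models only (0.22) and without genomic models (0.020). The cause was not tested. The known share was called lower in 25 to 30 genes under its alternatives, and in 19.9 to 70.7% of all genes tested. No paired analysis was possible because both libraries belong to 1 group. Depth limits SDHD most: its 45 and 50 reads leave an interval of −0.61 to 0.61 on the log2 ratio.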
